A study of Mus musculus with 16 samples.

Results

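Slc2a1, Pgk1, Ldhb and Pdk2 encode 4 proteins that handle glucose and its breakdown products, and they were followed in the brains of neonatal mice of 4 genotypes. Members were all array spots that the platform's probe annotation names as one of these genes, which gave 6 of the 28704 spots and 4 of the 10225 gene symbols on the array. Slc2a1 was read by a spot in print block 11 and another in print block 13, Pgk1 by 1 spot in block 41, Ldhb by 1 spot in block 31 and Pdk2 by 1 spot in block 38, while a further Pdk2 spot had no value on any array. A print block is a run of neighbouring spots in the table. The 4 genes were chosen with their differences between these genotypes known, so their own levels are given as a description without a test.

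The groups were 4 samples each of neonatal Cx43 null C57BL mice, neonatal Cx43 heterozygous C57BL mice, neonatal Cx32 null C57BL mice and neonatal wild-type mice, labelled C57BL/6j in replicates 1 and 2 and without a strain in replicates 3 and 4. Cx43 is connexin 43, the gap junction protein of astrocytes that Gja1 encodes, and Cx32 is connexin 32, a gap junction protein of oligodendrocytes that Gjb1 encodes. Each brain sample shared an array with a reference pooled from adult tissues (brain, heart, kidney, liver, lung and others), so a value is the log2 ratio of brain to that pool, after each array was centred on its median. The labels give neither the exact alleles, nor the age in days, nor the number of animals behind a sample. P-values therefore measure the spread between these samples, which may be technical. They also do not state the log base or the numerator: folds hold if the base is 2, and directions hold if brain is on top, which is likely because the neuron markers stood above the liver markers on 16 of 16 arrays. A ratio to the pool does not allow the level of one gene to be set against that of another.

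In the brain, glucose crosses the endothelium of the blood vessels and enters astrocytes through the transporter GLUT1, the product of Slc2a1. Glycolysis then splits it to pyruvate, with phosphoglycerate kinase 1, the product of Pgk1, catalysing the first step that yields ATP. Pyruvate is exchanged with lactate by lactate dehydrogenase, whose B subunit comes from Ldhb and prevails in oxidative cells, or enters the mitochondrial pyruvate dehydrogenase complex, which the kinase encoded by Pdk2 switches off. Slc2a1 and Pgk1 are textbook targets of the hypoxia-inducible factor HIF-1, and gap junctions of connexin 43 carry glucose and lactate between astrocytes.

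The arrays held between 21010 and 24819 spots with a value, and their number limits the precision. Wild-type replicate 1 stood apart, with a mean correlation over spots of 0.60 with the other arrays, against 0.77 to 0.86 for the rest. The array labelled Cx43 null replicate 1 correlated about as well with the wild-type arrays (mean 0.84) as with its own group (0.85). On 2 wild-type arrays a print block that holds a member was out of step with the other arrays: block 13 on replicate 4 (correlation 0.002) and block 41 on replicate 3 (0.22), where the values followed those of the other arrays at a shift of 26 spots (0.85). Gja1, the gene disrupted in the Cx43 lines, read -0.60, -1.71, -2.10 and -2.92 on the Cx43 null arrays, -1.09, -1.27, -1.25 and -1.86 on the Cx43 heterozygous arrays, 0.13, 0.10, -0.07 and 0.27 on the Cx32 null arrays and 2.47, 1.13, 1.48 and 1.17 on the wild-type arrays. It fell in all 3 lines, with log2 differences from wild type of -3.40 ± 0.37 (SE) in Cx43 null, -2.93 ± 0.37 in Cx43 heterozygous and -1.46 ± 0.37 in Cx32 null brain and limma adjusted p values of 0.000355, 0.000115 and 0.00986. Between Cx43 null and Cx43 heterozygous brain Gja1 differed by -0.47 ± 0.37 (limma adjusted p = 0.637) with overlapping arrays, or by -0.88 ± 0.32 (adjusted p = 0.32) without the array labelled Cx43 null replicate 1. The array labelled Cx43 null replicate 1 thus had more Gja1 than every Cx43 heterozygous array, which goes against the order of its label. The labels do not say whether the spot lies in the deleted part of the gene, so the genotype of this array cannot be settled here. The members' differences from wild type and the count over the pathway lists are also given without this array. For the members' differences between lines, ranges with 1 array left out at a time are given at the end. No spot is named Gjb1.

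**Figure D1:**
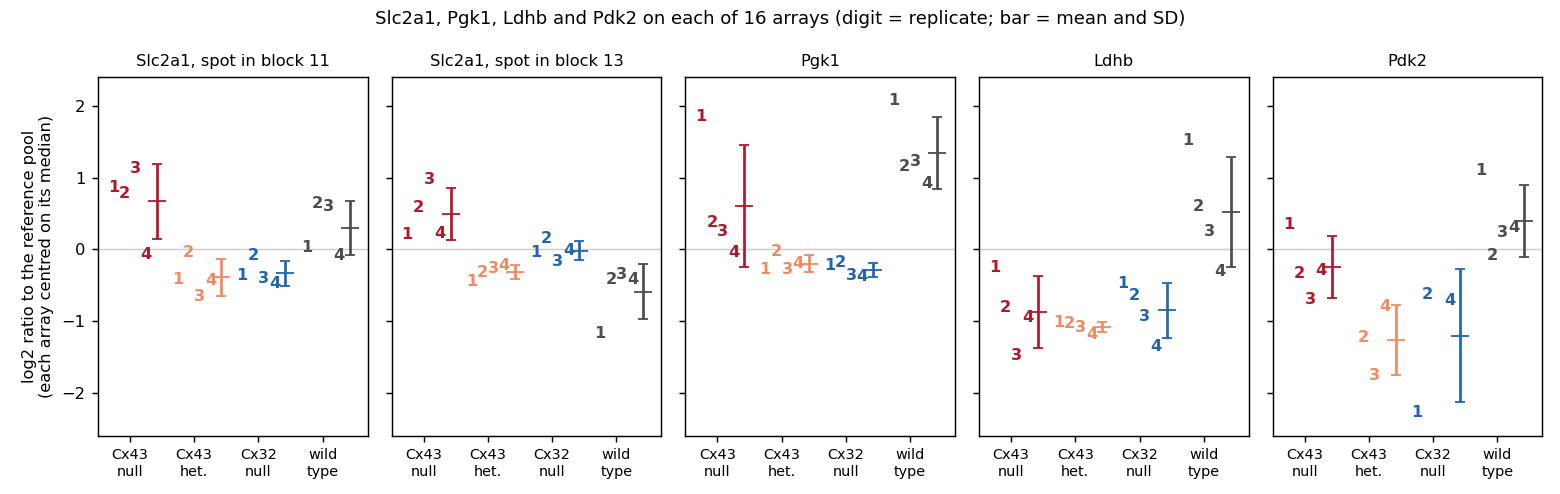
Log2 ratio to the reference pool of each usable spot of Slc2a1, Pgk1, Ldhb and Pdk2 on each array, with digits for the replicates and bars for the group mean and SD (n = 4, or 3 for Pdk2 in Cx43 heterozygous and Cx32 null brain). Pgk1 lay between -0.38 and -0.04 on all 8 Cx43 heterozygous and Cx32 null arrays and between 0.92 and 2.07 on the wild-type arrays, while both Slc2a1 spots were highest on average in Cx43 null brain.

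Slc2a1 had its highest mean in Cx43 null brain, and it was the only member to stand above wild type there. Its spot in block 11 read 0.86, 0.78, 1.12 and -0.08 on the Cx43 null arrays, -0.42, -0.05, -0.66 and -0.44 on the Cx43 heterozygous arrays, -0.37, -0.08, -0.40 and -0.48 on the Cx32 null arrays and 0.03, 0.64, 0.59 and -0.08 on the wild-type arrays. On this spot 3 Cx43 null arrays lay above every other array of the study and the fourth level with the lowest wild-type array. The spot in block 13 read 0.20, 0.58, 0.97 and 0.23 on the Cx43 null arrays, -0.45, -0.32, -0.26 and -0.22 on the Cx43 heterozygous arrays, -0.05, 0.15, -0.17 and -0.01 on the Cx32 null arrays and -1.17, -0.42, -0.35 and -0.42 on the wild-type arrays. Here all 4 Cx43 null arrays lay above all 12 others, and the wild-type arrays were among the lowest.

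Averaged over both spots, Slc2a1 was at 0.58 ± 0.40 in Cx43 null, -0.35 ± 0.13 in Cx43 heterozygous, -0.18 ± 0.14 in Cx32 null and -0.15 ± 0.33 in wild-type brain (SD, n = 4 each). Cx43 null brain stood 0.73 ± 0.20 (SE) above wild type, a 1.66-fold difference, and the arrays of the groups overlapped. Each SE given for a difference rests on a spread shared by all groups, not on that of the pair compared. From only the 8 arrays of Cx43 null and wild-type brain this SE was 0.26. Without the array labelled Cx43 null replicate 1 the difference was 0.75. Cx43 null brain stood 0.94 ± 0.20 above Cx43 heterozygous brain and 0.76 ± 0.20 above Cx32 null brain, and in neither comparison did the arrays overlap. Cx43 heterozygous and Cx32 null brain differed from wild type by -0.20 ± 0.20 and -0.03 ± 0.20, with overlapping arrays. In order of the mean, Cx43 heterozygous, Cx32 null and wild-type brain were neighbours whose arrays overlapped, and Cx43 null brain came above them.

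The spots of Slc2a1 disagreed on wild type. The value in block 11 minus that in block 13 was 0.66, 0.20, 0.15 and -0.31 on the Cx43 null arrays, 0.03, 0.28, -0.39 and -0.22 on the Cx43 heterozygous arrays, -0.32, -0.23, -0.23 and -0.47 on the Cx32 null arrays and 1.20, 1.06, 0.94 and 0.34 on the wild-type arrays. The gap was widest on wild-type replicates 1 to 3. In block 13 these arrays had correlations of 0.60, 0.71 and 0.77 with the others, against their own medians over all print blocks of 0.64, 0.84 and 0.85. In block 11 the correlations were 0.64, 0.83 and 0.84. The part of either block in the disagreement was not tested. With the out-of-step value left out, the averaged Slc2a1 difference was 0.69, -0.25 and -0.07 in Cx43 null, Cx43 heterozygous and Cx32 null brain. From the spot in block 11 alone the difference from wild type was 0.37 ± 0.24 in Cx43 null, -0.69 ± 0.24 in Cx43 heterozygous and -0.63 ± 0.24 in Cx32 null brain. From the spot in block 13 alone it was 1.09 ± 0.21, 0.28 ± 0.21 and 0.57 ± 0.21. The sign was thus shared by both spots in Cx43 null brain and opposite in the other lines, where the averaged value near 0 is not a reading of either spot. Against the other lines the spots did share a sign: Cx43 null minus Cx43 heterozygous brain was 1.06 and 0.81, and Cx43 null minus Cx32 null brain was 1.00 and 0.51, from blocks 11 and 13 in turn.

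Pgk1 was lower in Cx43 heterozygous and Cx32 null than in wild-type brain, and took a middle place in Cx43 null brain. It read 1.86, 0.38, 0.25 and -0.05 on the Cx43 null arrays, -0.29, -0.04, -0.28 and -0.21 on the Cx43 heterozygous arrays, -0.22, -0.19, -0.36 and -0.38 on the Cx32 null arrays and 2.07, 1.15, 1.22 and 0.92 on the wild-type arrays. The array labelled Cx43 null replicate 1 lay within the wild-type range, and the other 3 Cx43 null arrays lay below it. The mean was 0.61 ± 0.85 in Cx43 null, -0.20 ± 0.12 in Cx43 heterozygous, -0.29 ± 0.10 in Cx32 null and 1.34 ± 0.50 in wild-type brain (SD, n = 4 each).

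Pgk1 was 2.91-fold lower in Cx43 heterozygous brain (-1.54 ± 0.32 SE) and 3.09-fold lower in Cx32 null brain (-1.63 ± 0.32) than in wild type. The lowest wild-type array lay 0.95 and 1.11 log2 units above the highest array of each line. In Cx43 null brain the difference was -0.73 ± 0.32, or -1.15 with the array labelled Cx43 null replicate 1 left out and -0.49 when wild-type replicate 1 was dropped. Cx43 null minus Cx43 heterozygous brain was 0.81 ± 0.32 and Cx43 null minus Cx32 null brain 0.90 ± 0.32, and without the array labelled Cx43 null replicate 1 these were 0.40 and 0.48. Cx43 heterozygous and Cx32 null brain, neighbours in the order of the means, differed by 0.09 ± 0.32. At the shifted place, wild-type replicate 3 read 1.08 in place of 1.22 for Pgk1. With the out-of-step value left out, the differences from wild type were -0.77, -1.58 and -1.67 in Cx43 null, Cx43 heterozygous and Cx32 null brain.

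Ldhb had a lower mean in all 3 lines than in wild type, by similar amounts. It read -0.25, -0.82, -1.48 and -0.95 on the Cx43 null arrays, -1.02, -1.04, -1.09 and -1.18 on the Cx43 heterozygous arrays, -0.48, -0.64, -0.93 and -1.36 on the Cx32 null arrays and 1.52, 0.59, 0.25 and -0.30 on the wild-type arrays. The array labelled Cx43 null replicate 1 lay just above wild-type replicate 4, and these were the only arrays of a line and of wild type that crossed. The mean was -0.87 ± 0.50 in Cx43 null, -1.08 ± 0.07 in Cx43 heterozygous, -0.85 ± 0.39 in Cx32 null and 0.52 ± 0.77 in wild-type brain (SD, n = 4 each).

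Against wild type Ldhb was 2.62-fold lower in Cx43 null (-1.39 ± 0.32 SE), 3.03-fold lower in Cx43 heterozygous (-1.60 ± 0.32) and 2.58-fold lower in Cx32 null brain (-1.37 ± 0.32). Without wild-type replicate 1 these differences were -1.05, -1.26 and -1.03, and without the array labelled Cx43 null replicate 1 the first was -1.60. Between lines the Ldhb difference was 0.21 for Cx43 null minus Cx43 heterozygous and -0.02 for Cx43 null minus Cx32 null brain. For Cx43 heterozygous minus Cx32 null brain it was -0.23. Each was below its SE of 0.32, which includes the wide spread of wild type, and the arrays overlapped.

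Pdk2, like Pgk1, had its lowest means in Cx43 heterozygous and Cx32 null brain and a middle one in Cx43 null brain, with fewer values. It read 0.34, -0.34, -0.70 and -0.30 on the Cx43 null arrays, -1.23, -1.77 and -0.80 on Cx43 heterozygous replicates 2 to 4, -2.28, -0.63 and -0.71 on Cx32 null replicates 1, 2 and 4, and 1.10, -0.08, 0.23 and 0.31 on the wild-type arrays. Cx43 heterozygous replicate 1 and Cx32 null replicate 3 had no value, and the fit drops them for this gene. The mean was -0.25 ± 0.43 (SD, n = 4) in Cx43 null, -1.26 ± 0.49 (n = 3) in Cx43 heterozygous, -1.20 ± 0.93 (n = 3) in Cx32 null and 0.39 ± 0.50 (n = 4) in wild-type brain.

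Pdk2 was 3.14-fold lower in Cx43 heterozygous brain (-1.65 ± 0.39 SE) and 3.02-fold lower in Cx32 null brain (-1.59 ± 0.39) than in wild type, with no overlap of arrays. Without Cx32 null replicate 1, the lowest array of all, the difference in Cx32 null brain was -1.06. In Cx43 null brain it was -0.64 ± 0.36 with overlapping arrays, or -0.40 without wild-type replicate 1 and -0.84 without the array labelled Cx43 null replicate 1. Cx43 null brain stood 1.01 ± 0.39 above Cx43 heterozygous brain for Pdk2, without overlap, and 0.95 ± 0.39 above Cx32 null brain, or 0.42 above it without Cx32 null replicate 1.

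Counted over the members, the arrays of Cx43 null and wild-type brain did not separate for any of the 4 genes, where 12.9% of all 14292 tested transcripts did. In Cx43 heterozygous brain 3 of 4 members, Pgk1, Ldhb and Pdk2, lay wholly below wild type, against 31.1% of transcripts that separated in either direction and 17.4% that lay lower. The same 3 genes lay wholly below wild type in Cx32 null brain, against 27.8% and 14.6%. Cx43 null brain lay wholly above Cx43 heterozygous brain for Slc2a1 and Pdk2 (12.4% of transcripts separated, with 7.11% higher in Cx43 null brain) and above Cx32 null brain for Slc2a1 and Pgk1 (7.88%, with 4.34% higher in Cx43 null brain). No member separated Cx43 heterozygous from Cx32 null brain, where 14.0% of transcripts did. Slc2a1 is counted here on the average of its spots, and its single spots gave other results. From block 13 alone, Cx43 null and Cx32 null brain lay wholly above wild type, by 0.55 and 0.18 log2 units. Cx43 heterozygous brain also lay wholly below Cx32 null brain there, by 0.05. From block 11 alone, Cx43 null brain overlapped wild-type and Cx43 heterozygous brain, and lay above Cx32 null brain by only 0.003. Since the genes were picked on such differences, nothing is read from these counts, and the 3 comparisons with wild type share the same 4 wild-type arrays.

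**Figure D2:**
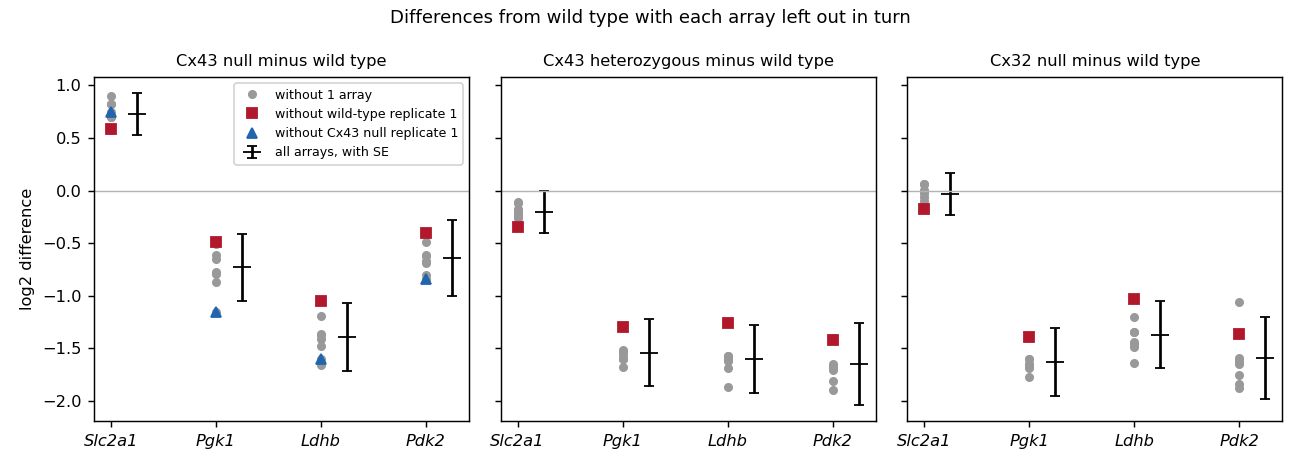
Log2 difference from wild type of Slc2a1, Pgk1, Ldhb and Pdk2 in each line, with all arrays (black, mean and SE) and with 1 array left out at a time (points). Without wild-type replicate 1 the differences of Pgk1, Ldhb and Pdk2 were nearer to 0 in every line, for Pgk1 between -1.39 and -0.49, and Slc2a1 in Cx43 null brain kept a difference of 0.59.

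The stretches before the start sites are given because Slc2a1 differed from the other members in how it lay across the lines, and because Slc2a1 and Pgk1 are classical HIF-1 targets. They are RefSeq promoter sequences of GRCm38.p6, 250 bases long, read 5′ to 3′ on the gene's strand up to the base before the annotated start, with ACGTG, the core of the hypoxia response element, in capitals on either strand (CACGT on the other). They lie at chr4:119108495-119108744 (plus strand) for Slc2a1, chrX:106186850-106187099 (plus) for Pgk1, chr6:142507958-142508207 (minus) for Ldhb and chr11:95041372-95041621 (minus) for the outer of 2 Pdk2 start sites.
Slc2a1: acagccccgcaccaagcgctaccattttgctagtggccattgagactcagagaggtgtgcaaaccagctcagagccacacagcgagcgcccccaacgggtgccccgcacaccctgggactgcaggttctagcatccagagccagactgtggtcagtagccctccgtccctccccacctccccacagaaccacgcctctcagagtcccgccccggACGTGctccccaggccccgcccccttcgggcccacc
Pgk1: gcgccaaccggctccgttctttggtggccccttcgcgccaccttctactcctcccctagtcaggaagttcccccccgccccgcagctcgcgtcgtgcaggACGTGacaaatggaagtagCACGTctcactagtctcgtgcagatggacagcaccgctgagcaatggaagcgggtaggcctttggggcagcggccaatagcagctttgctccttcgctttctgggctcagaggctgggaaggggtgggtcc
Ldhb: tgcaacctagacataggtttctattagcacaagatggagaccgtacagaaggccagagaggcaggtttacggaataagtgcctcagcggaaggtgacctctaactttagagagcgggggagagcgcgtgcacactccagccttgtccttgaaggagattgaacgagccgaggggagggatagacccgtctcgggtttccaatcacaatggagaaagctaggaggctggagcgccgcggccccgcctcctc
Pdk2: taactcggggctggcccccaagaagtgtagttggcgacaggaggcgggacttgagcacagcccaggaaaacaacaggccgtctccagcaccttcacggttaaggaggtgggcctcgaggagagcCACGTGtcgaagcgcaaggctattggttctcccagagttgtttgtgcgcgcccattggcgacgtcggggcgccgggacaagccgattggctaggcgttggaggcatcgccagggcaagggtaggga

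The Slc2a1 window held ACGTG once, with its first base 36 bases before the start. The Pgk1 window held it once on each strand, 150 and 131 bases before the start. In the Pdk2 window the letters CACGTG, a palindrome that is also the E-box of basic helix-loop-helix factors, gave overlapping matches on both strands from 126 bases before the start. The Ldhb window and the window of the inner Pdk2 start had none. Of 32851 windows of this length in the RefSeq table, from 27025 genes, 16.6% held ACGTG on either strand. Counting overlapping matches, 6.8% held 2 or more, as the Pgk1 and Pdk2 windows did. CACGTG was held by 6.0%, so a match is a description of the letters and not of a bound site.

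Members of the same families as Slc2a1, Ldhb and Pdk2 were read by other spots and give a comparison within each family. Among the other glucose transporters 5 of 12 listed genes were measured. Slc2a3, the neuronal transporter GLUT3, fell by 1.23 ± 0.29 (SE, limma adjusted p = 0.00506) in Cx43 heterozygous and by 1.01 ± 0.29 (adjusted p = 0.0169) in Cx32 null brain, and was at -0.72 ± 0.29 (adjusted p = 0.105) in Cx43 null brain. Its values ran from -1.81 to -0.72 on the Cx43 null, from -1.91 to -1.57 on the Cx43 heterozygous, from -1.76 to -1.44 on the Cx32 null and from -1.30 to 0.30 on the wild-type arrays, with 1 of these out of step. The lowest wild-type array lay above all Cx43 heterozygous and Cx32 null arrays and within the Cx43 null range. Slc2a4, the insulin-responsive GLUT4, fell by 1.37 ± 0.26 in Cx43 heterozygous brain (adjusted p = 0.00161). Slc2a12 rose by 0.78 ± 0.19 in Cx43 heterozygous (adjusted p = 0.00618) and 0.59 ± 0.19 in Cx32 null brain (adjusted p = 0.0303), and Slc2a6 rose by 0.73 ± 0.26 in Cx32 null brain (adjusted p = 0.0458). Slc2a8 was at -0.24, -0.07 and 0.06 in Cx43 null, Cx43 heterozygous and Cx32 null brain and passed in none. No transporter passed in Cx43 null brain, and 60.0% of the 5 passed in each of the other lines. Beside these and the family results below, 10.8%, 31.0% and 27.3% of all transcripts passed in Cx43 null, Cx43 heterozygous and Cx32 null brain.

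Ldha, which encodes the subunit of lactate dehydrogenase that prevails in glycolytic cells, did not pass in any line. It read 1.54, 0.17, -0.06 and -0.65 on the Cx43 null arrays, -0.81, -0.23, -0.64 and -0.73 on the Cx43 heterozygous arrays, -1.02, -0.74, -0.94 and -1.10 on the Cx32 null arrays and -0.20, 0.68, -1.11 and 0.50 on the wild-type arrays. Wild type itself spread over 1.79 log2 units, so that the arrays overlapped in every line. The Ldha differences were 0.28 ± 0.39, -0.57 ± 0.39 and -0.92 ± 0.39 in Cx43 null, Cx43 heterozygous and Cx32 null brain, where Ldhb had -1.39, -1.60 and -1.37. The difference between the subunits was not tested. Ldhd, the dehydrogenase of D-lactate, was within 0.22 of wild type in each line and did not pass.

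Of the other pyruvate dehydrogenase kinases Pdk1 and Pdk3 were measured, and neither passed in any line. Pdk1 read 0.85, 0.47, 0.89 and 0.23 on the Cx43 null arrays, 0.09, 0.02, -0.16 and -0.08 on the Cx43 heterozygous arrays, 0.13, -0.11, -0.02 and 0.24 on the Cx32 null arrays and -0.16, 0.54, 0.67 and 0.02 on the wild-type arrays. It stood above Cx43 heterozygous brain on every Cx43 null array, and its differences from wild type were 0.34 ± 0.20, -0.30 ± 0.20 and -0.21 ± 0.20 in Cx43 null, Cx43 heterozygous and Cx32 null brain. Those of Pdk3 were -0.44, -0.50 and -0.60.

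Of 9 measured glycolysis enzymes beside Pgk1, 0 passed in Cx43 null brain, 5 fell in Cx43 heterozygous and 4 fell in Cx32 null brain, and none rose. Over all transcripts 10.8% passed in Cx43 null brain (4.37% higher, 6.43% lower), 31.0% in Cx43 heterozygous brain (13.5% higher, 17.5% lower) and 27.3% in Cx32 null brain (13.1% higher, 14.3% lower). Left uncentred, the shares over all transcripts were 21.2% higher and 12.6% lower in Cx43 heterozygous brain and 15.5% higher and 11.6% lower in Cx32 null brain, so that which direction held more calls turned over with the centring. The median of the 9 differences was -0.53, -0.79 and -0.84, beside 0.01, -0.02 and -0.03 over all transcripts. Aldoa, the aldolase of muscle and most tissues, read 0.93, -0.73, -0.57 and -1.02 on the Cx43 null arrays, between -1.36 and -0.97 on the Cx43 heterozygous arrays, between -1.31 and -0.90 on the Cx32 null arrays and between 0.16 and 0.60 on the wild-type arrays. As for Pgk1, the array labelled Cx43 null replicate 1 lay within or above the wild-type range, while replicates 2 and 3 lay between wild type and the other lines and replicate 4 came lowest of the null arrays. Aldoa fell by 1.59 ± 0.30 in Cx43 heterozygous (adjusted p = 0.00131) and by 1.49 ± 0.30 in Cx32 null brain (adjusted p = 0.00287).

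Gapdh, which encodes the dehydrogenase of the step before phosphoglycerate kinase, fell by 1.56 ± 0.33 in Cx43 heterozygous (adjusted p = 0.00276) and by 1.35 ± 0.33 in Cx32 null brain (adjusted p = 0.00782). It read 2.05, 0.38, 0.60 and 0.09 on the Cx43 null arrays, from -0.19 to 0.36 in Cx43 heterozygous, from -0.08 to 0.59 in Cx32 null and from 1.23 to 2.15 in wild-type brain. Tpi1, triosephosphate isomerase, fell by 1.16 ± 0.37 and 1.45 ± 0.37 in Cx43 heterozygous and Cx32 null brain, and the brain aldolase Aldoc by 0.79 ± 0.23 and 0.84 ± 0.23. Eno3, the muscle enolase, fell by 1.21 ± 0.41 in Cx43 heterozygous brain and had a low ratio to the pool in every group, from -3.84 to -2.63 as group means. Hexokinase Hk1, the phosphofructokinases Pfkl and Pfkp and pyruvate kinase Pkm passed in no line, with Pfkp at 0.52, 0.58 and 0.60 and Pkm at -0.41, -0.75 and -0.69 in Cx43 null, Cx43 heterozygous and Cx32 null brain. Leaving out the array labelled Cx43 null replicate 1, 4 of the 9 enzymes passed lower and 1 higher in Cx43 null brain, where 17.1% of all transcripts passed. Dropping wild-type replicate 1 gave counts of 0 in Cx43 null and 4 lower each in Cx43 heterozygous and Cx32 null brain. In that fit 5.79%, 27.6% and 23.2% of all transcripts passed in Cx43 null, Cx43 heterozygous and Cx32 null brain.

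**Figure D3:**
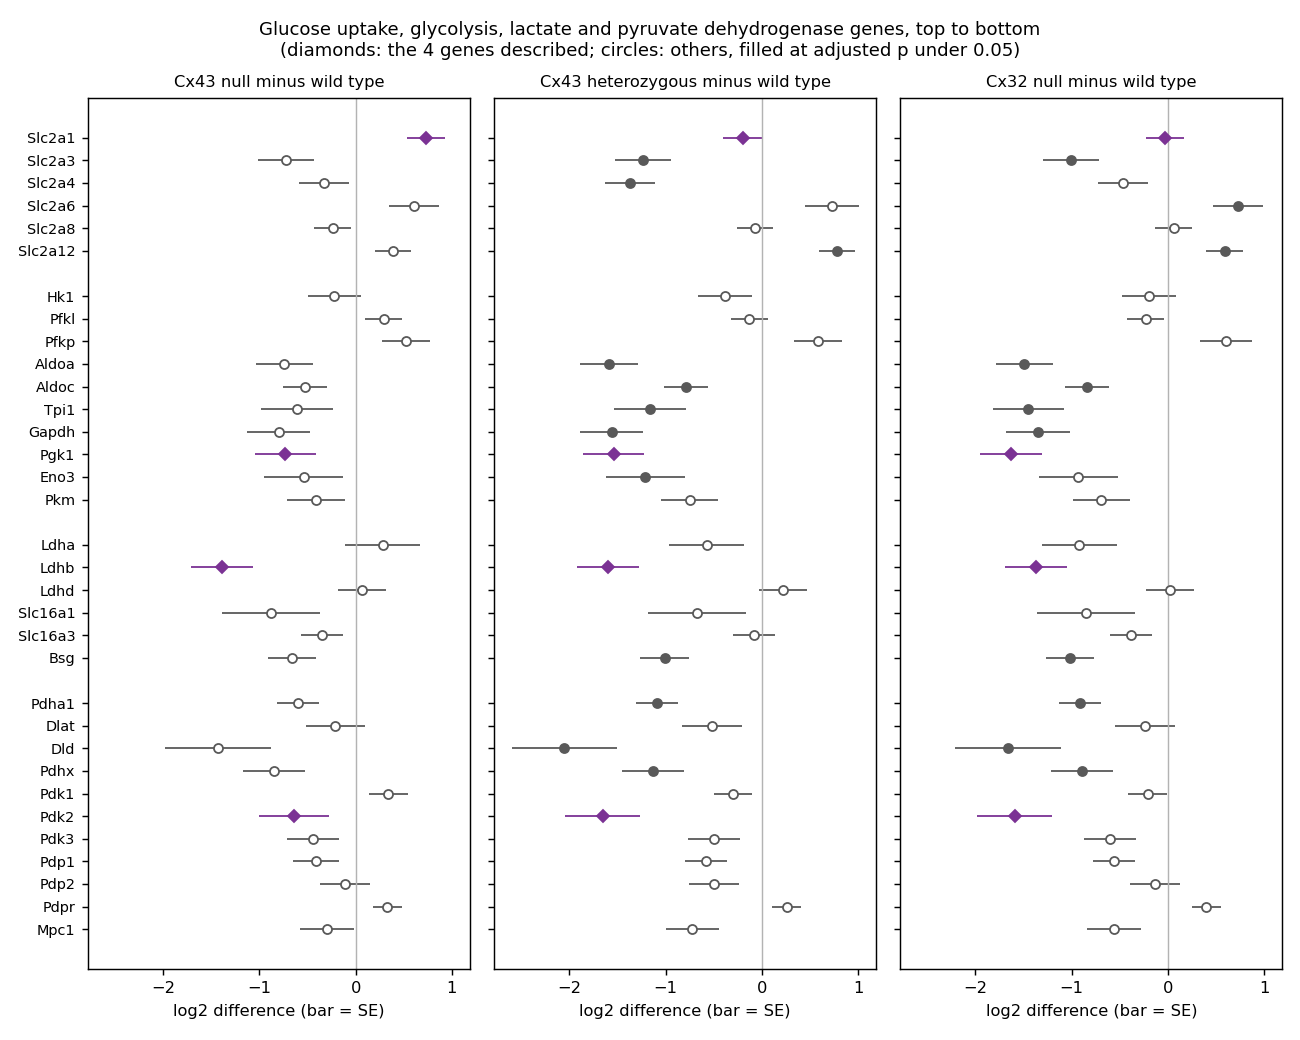
Log2 difference from wild type (x axis, with SE) of the measured genes of glucose uptake, glycolysis, lactate handling and the pyruvate dehydrogenase complex, in pathway order from top to bottom, with diamonds for Slc2a1, Pgk1, Ldhb and Pdk2 and circles for the others, filled where the gene passed at an adjusted p under 0.05. No circle is filled in Cx43 null brain, 12 are in Cx43 heterozygous and 11 in Cx32 null brain.

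Further along, Bsg, the basigin that brings lactate transporters to the membrane, fell by 1.01 ± 0.25 in Cx43 heterozygous (adjusted p = 0.00716) and by 1.02 ± 0.25 in Cx32 null brain (adjusted p = 0.00834). Among 10 measured genes of the pyruvate dehydrogenase complex and its regulators beside Pdk2, 3 fell and 0 rose in each of these lines. They were Pdha1, the E1 alpha subunit (-1.09 ± 0.22 in Cx43 heterozygous and -0.91 ± 0.22 in Cx32 null brain), Dld, the E3 subunit (-2.05 ± 0.55 and -1.66 ± 0.55), and Pdhx, the E3-binding protein (-1.13 ± 0.32 and -0.89 ± 0.32). At 30.0% in each line this share was near that over all transcripts, 31.0% and 27.3%. Over the uptake, glycolysis, lactate and pyruvate dehydrogenase lists together, 29 measured genes beside the members, 12 passed in Cx43 heterozygous brain (1 higher, 11 lower, 41.4%) and 11 in Cx32 null brain (2 higher, 9 lower, 37.9%), and 0 passed in Cx43 null brain. Without the array labelled Cx43 null replicate 1, 10 of the 29 passed in Cx43 null brain, 1 higher and 9 lower, while the share over all transcripts was 17.1% in that fit, beside 10.8% with the array.

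Among the side routes of glucose some genes passed in all 3 lines, but each of the 9 calls in Cx43 null brain was lost under at least 1 alternative. With only the 8 arrays of Cx43 null and wild-type brain none of the 80 pathway genes passed, and without Cx43 null replicate 3 only Idh3b did. Over all transcripts 0.00% and 0.798% passed in these fits. Tkt, the transketolase of the pentose phosphate pathway, read 1.80, 1.65, 0.56 and 0.76 on the Cx43 null arrays, from 0.35 to 0.58 in Cx43 heterozygous, from 0.57 to 0.78 in Cx32 null and from 1.85 to 2.36 in wild-type brain, where every array lay above those of the lines. It fell by 0.95 ± 0.24, 1.69 ± 0.24 and 1.48 ± 0.24 in Cx43 null, Cx43 heterozygous and Cx32 null brain, with adjusted p values of 0.0231, 0.000195 and 0.000809. Taldo1, transaldolase, fell in the same order of lines (-1.45 ± 0.40, -2.16 ± 0.40 and -2.11 ± 0.40, n = 3 wild-type arrays). H6pd, of the same pathway list, rose by 0.67 in Cx32 null brain, a call kept under 13 of 19 alternatives. Tigar, a phosphatase that lowers fructose 2,6-bisphosphate, rose by 0.73 ± 0.21, 0.63 ± 0.21 and 0.81 ± 0.21, and its call in Cx43 null brain was lost without any one of null replicates 2 to 4. With spots of at least 2 values in each group admitted, Tigar was at -0.05 in Cx43 heterozygous brain. Of 13 measured glycogen genes 3 fell in every line. They were the glycogen phosphorylases Pygm (-1.18, -1.46 and -1.23) and Pygb (-0.98, -1.06 and -1.06) and the phosphorylase kinase subunit Phkg2 (-0.80, -1.34 and -0.87). Phka1, another subunit, rose by 0.88 in Cx32 null brain (n = 3 in each group). Of the glycogen genes 23.1%, 23.1% and 30.8% thus passed in Cx43 null, Cx43 heterozygous and Cx32 null brain. Over all transcripts the shares were 10.8%, 31.0% and 27.3%. Of 5 gluconeogenesis genes Fbp2 and G6pc3 fell in Cx43 heterozygous (-1.68 and -0.76) and Cx32 null brain (-1.69 and -0.66), which is 40.0% in each.

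Of 11 measured citric acid cycle genes 3 fell in Cx43 null brain and 7 each in Cx43 heterozygous and Cx32 null brain, and none rose. These were 27.3%, 63.6% and 63.6% of the list, where 6.43%, 17.5% and 14.3% of all transcripts fell. Idh3b, a subunit of isocitrate dehydrogenase, fell by 1.35, 1.58 and 1.51, Mdh2, malate dehydrogenase, by 1.06, 1.33 and 1.24, and Sdhb, the iron-sulphur subunit of succinate dehydrogenase, by 1.17, 1.09 and 0.94 in Cx43 null, Cx43 heterozygous and Cx32 null brain. Cs passed in Cx43 heterozygous and Cx32 null brain only, where it fell by 1.21 and 0.92. Over all 80 measured genes of the pathway lists beside the members, 1 rose and 8 fell in Cx43 null (11.2%), 6 rose and 27 fell in Cx43 heterozygous (41.2%) and 8 rose and 24 fell in Cx32 null brain (40.0%). Over all transcripts 10.8%, 31.0% and 27.3% passed. Between the lines 0 of the 80 passed in any pair, where 1.46%, 0.0840% and 1.23% of all transcripts did for Cx43 null minus Cx43 heterozygous, Cx43 null minus Cx32 null and Cx43 heterozygous minus Cx32 null brain.

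Regulators of the HIF pathway moved in both directions. Hif1a, the oxygen-regulated subunit, fell by 0.91 ± 0.29 in Cx43 heterozygous and 1.01 ± 0.29 in Cx32 null brain (n = 3 wild-type arrays), while its partner Arnt rose by 0.52 ± 0.19 and 0.63 ± 0.19. Hif1an, which hydroxylates and restrains HIF, rose by 1.5 ± 0.32 and 1.17 ± 0.32, and the prolyl hydroxylase Egln3 by 0.75 ± 0.22 and 0.88 ± 0.22. Another prolyl hydroxylase, Egln2, fell by 0.76 ± 0.27 in Cx43 heterozygous brain and was at -0.37 ± 0.27 in Cx32 null brain, where it did not pass. None of the 7 measured regulators passed in Cx43 null brain, where 10.8% of all transcripts did. In Cx43 heterozygous and Cx32 null brain 71.4% and 57.1% of them passed, beside 31.0% and 27.3% of all transcripts. The part of these regulators in the Slc2a1 values was not tested. Of 7 measured HIF targets outside glycolysis Egln3 alone passed, in Cx43 heterozygous and Cx32 null brain. That was 14.3% of these targets in each line, beside 31.0% and 27.3% of all transcripts. The median difference of these targets from wild type was 0.38, -0.17 and -0.07 in Cx43 null, Cx43 heterozygous and Cx32 null brain.

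Slc2a1 is strong in brain endothelium and in red blood cells, and Ldhb and Aldoc in astrocytes, so markers of these cells were read beside them. In whole brain, fewer cells of a type and less RNA in each cell cannot be told apart. Beside the marker counts, 10.8%, 31.0% and 27.3% of all transcripts passed in Cx43 null, Cx43 heterozygous and Cx32 null brain. Of 4 measured endothelial markers 0 passed in Cx43 null brain, 1 in Cx43 heterozygous (Cldn5, 0.89 ± 0.27) and 0 in Cx32 null brain, and the list's median over genes ran from -1.01 to -0.42, from -0.82 to -0.29, from -0.79 to -0.38 and from -0.95 to -0.56 on the Cx43 null, Cx43 heterozygous, Cx32 null and wild-type arrays. These endothelial ranges overlapped. Of 7 red cell markers 1 passed in Cx43 null, 5 in Cx43 heterozygous and 3 in Cx32 null brain, in both directions, and the list's median ran from -1.54 to -0.94, from -2.0 to -1.46, from -1.96 to -1.46 and from -1.19 to -0.73. The red cell list lay wholly below wild type in Cx43 heterozygous and Cx32 null brain, and its part in the member values was not tested. Of 7 markers of astrocytes and radial glia, a list that holds Aldoc itself, 1 fell in Cx43 null brain, which was Gja1. In Cx43 heterozygous brain 3 fell and 1 rose, and in Cx32 null brain 2 fell, Aldoc and Gja1. In each line 5 of the 7 lay below wild type. The list's median ran from -0.22 to 0.18, from -0.28 to 0.44 and from -0.14 to 0.13 on the arrays of the 3 lines and from 0.48 to 1.17 on the wild-type arrays. The median of the astrocyte list, which holds Gja1 and Aldoc, thus lay below wild type on every array of the lines, and its part in the Ldhb values was not tested. The neuron list of 8 genes ran from 1.02 to 1.78, from 1.23 to 1.33, from 1.07 to 1.32 and from 1.07 to 2.03. Of 4 microglia markers C1qa and C1qb fell in all 3 lines, while Itgam rose in Cx43 heterozygous and Cx32 null brain. In each line 2 of the 4 lay below wild type. The median of the microglia list ran from -1.11 to -0.64, from -1.17 to -0.90, from -1.38 to -0.50 and from -0.80 to -0.40, with no overlap between Cx43 heterozygous and wild-type brain. The liver list, read for the direction of the ratio, ran from -4.56 to -4.36, from -4.93 to -4.12, from -4.92 to -3.24 and from -3.75 to -2.98, and lay wholly below wild type in both Cx43 lines with 0, 2 and 1 of its 7 genes passing. Of 8 measured skeletal muscle markers 1 fell in Cx43 null and 3 each in Cx43 heterozygous and Cx32 null brain, with 0 higher. In these lines 6, 5 and 7 of the 8 lay below wild type. The muscle median ran from -2.53 to -1.71, from -1.96 to -1.64, from -3.04 to -1.91 and from -1.95 to -1.50, so that every line overlapped wild type. The part of these lists in the member values, or in the values of muscle enzymes such as Eno3, was not tested.

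For likeness, each gene was centred on its own mean over the arrays, and the root mean square difference of the profiles was taken over 6756 named genes with a value on every array. A profile that did not vary at all would lie at the member's own spread from it. That spread was 0.43 for Slc2a1, 0.79 for Pgk1, 0.77 for Ldhb and 0.85 for Pdk2, each below the median distance given here. The profile nearest to Slc2a1 was that of Pdk1, at 0.23 log2 units over 16 arrays, where the median gene was at 0.56 from it. The profiles of 1700021K19Rik and Samhd1 came next, at 0.26 and 0.28. These rest on the average of the disagreeing spots. For the spot in block 11 alone Ier3 was nearest (0.27) and Pdk1 came next (0.30), while for the spot in block 13 alone Slc35a2, Arf3 and Rgl2 were nearest (0.25 to 0.26) and Pdk1 was at 0.39. Nearest to Pgk1 were the heat shock cognate Hspa8 at 0.19, Aldoa at 0.205 and the proton pump subunit Atp6v1a at 0.21, against a median of 0.82. Nearest to Ldhb were the ribosomal protein gene Rpl15 at 0.20, with 2 values from out-of-step blocks among its 4 spots, the complex I subunit Ndufs8 at 0.21 and BC004004 at 0.21, against a median of 0.79. Nearest to Pdk2, over 14 arrays, were Ciao2a at 0.37, M6pr at 0.37 and Fcgr3 at 0.395, against a median of 0.88. Among the members Pgk1 and Ldhb were 0.46 apart, Pgk1 and Pdk2 0.49 and Ldhb and Pdk2 0.70, while Slc2a1 lay 0.82 to 0.95 from each of them. All genes share the same arrays, and these distances carry no test.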

How the data were processed

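Brain cDNA was labelled with Cy3 and the pooled reference with Cy5, per the labels. The authors' deposited table gives 1 log ratio per spot and array, and these deposited values are read here as log2 ratios. The base, the numerator, the image analysis and the normalization are not given in the sources used here, and no intensities or spot flags were used. Wild-type replicate 3 carries the number 2 in its channel label, and its title was followed. Of 28704 spots, 18511 have 1 symbol (18267 through the gene identifier, RefSeq GRCm38.p6 names), 937 have several and 9256 are unnamed here.

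Each array was centred on its median. Spots with at least 3 of 4 values in each group were kept, and spots of a gene averaged, which left 14292 transcripts. The 4 group means were fitted over all 16 arrays with limma 3.58.1 in R 4.3.3 (lmFit and eBayes, 2-sided), Benjamini-Hochberg adjusted over all transcripts at 0.05. The fit was tested on simulated data. An array was called out of step in a block where its correlation with the other arrays was under 0.5, or the block's median correlation under 0.8. Replicate numbers were not used as a block: samples with the same number did not deviate together.

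The members and lists were chosen with earlier results of these data known. Genes named are the members, Gja1, measured paralogs, all glycolysis enzymes and up to 3 members of a list that rose and 3 that fell most. Cldn5 and Itgam were named after their values were seen, and Sdhb, which passed in all 3 lines, was named outside this rule. Alternatives covered scaling, filter, spot choice, array weights, the replicate block and each array left out.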

Additional observations from a re-analysis of the deposited data

Results flagged for a closer look

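The spot of Slc2a1 in print block 13 read -1.17 on wild-type replicate 1, far below the other wild-type arrays at -0.42 to -0.35. The gap to the nearest was 0.91 of the group's range. It was the only such array among 22 groups of 4 values tested for the members, and chance gives about 1 in 20. On the same array the spot in block 11 read 0.03. Wild-type replicate 1 was also the highest wild-type array for Pgk1, Ldhb and Pdk2.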

How the results depend on the processing

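Of the pathway genes that passed against wild type, 9, 33 and 32 in Cx43 null, Cx43 heterozygous and Cx32 null brain, 0, 19 and 12 passed under every alternative in which they had a value. The 0 in Cx43 null brain was fixed by the fit with only the 8 arrays of both groups, where no transcript passed. The like share over all transcripts that passed was not counted. In Cx43 heterozygous brain 2 had the other sign under 1 alternative each, Pfkfb3 (-0.55, the spot with the most values) and Tigar (-0.05, at least 2 values in each group). Slc2a1 against wild type was -0.69 in Cx43 heterozygous and -0.63 in Cx32 null brain with the spot with the most values (block 11), and 0.28 and 0.57 with the spot in block 13 alone, an alternative chosen after seeing the data. Of the 80 pathway genes, the 9 that passed in Cx43 null brain became 40 with array weights, where 39.2% of all transcripts passed, and 0 with only the 8 arrays of both groups, where 0 of 14292 passed and 3061 had an unadjusted p under 0.05. Between lines the count of 0 became 22 (Cx43 null minus Cx43 heterozygous), 5 (Cx43 null minus Cx32 null) and 1 (Cx43 heterozygous minus Cx32 null) with array weights, and 1 for the first pair with the spot with the most values. With array weights 19.9%, 8.17% and 7.04% of all transcripts passed for these pairs.

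With 1 array left out at a time, the pathway count against wild type ran from 1 (without Cx43 null replicate 3, 0.798% of all transcripts) to 23 (without the array labelled Cx43 null replicate 1, 17.1%) in Cx43 null, from 27 to 35 in Cx43 heterozygous and from 21 (without Cx32 null replicate 4, 19.3%) to 38 in Cx32 null brain. The share over all transcripts moved too, from 22.3% to 35.6% in Cx43 heterozygous and from 19.1% to 32.0% in Cx32 null brain. For Cx43 null brain the pathway count was also 5 without null replicate 2, 3 without null replicate 4, 4 without wild-type replicate 2 and 17 without wild-type replicate 4. In these fits 3.55%, 4.09%, 3.39% and 20.9% of all transcripts passed, in turn. Between lines the pathway count ran from 0 to 1 for the pairs with Cx43 heterozygous brain and stayed at 0 for Cx43 null minus Cx32 null brain.

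Against wild type, in Cx43 null, Cx43 heterozygous and Cx32 null brain, the ranges were 0.58 to 0.90, -0.35 to -0.11 and -0.17 to 0.06 for Slc2a1, -1.15 to -0.49, -1.68 to -1.30 and -1.77 to -1.39 for Pgk1, -1.66 to -1.05, -1.87 to -1.26 and -1.64 to -1.03 for Ldhb, and -0.84 to -0.40, -1.89 to -1.40 and -1.88 to -1.06 for Pdk2. For Cx43 null minus Cx43 heterozygous brain the ranges were 0.78 to 1.10 for Slc2a1, 0.40 to 1.03 for Pgk1, 0.0 to 0.41 for Ldhb and 0.76 to 1.25 for Pdk2. For Cx43 null minus Cx32 null brain they were 0.60 to 0.93, 0.48 to 1.12, -0.23 to 0.18 and 0.42 to 1.24. With a replicate block the pathway counts were 9, 35 and 31, beside 9, 33 and 32, and 11.1%, 31.1% and 27.1% of all transcripts passed. The numbers did not pair the samples (correlations of deviations -0.24 to 0.24). Left uncentred, the pathway split in Cx43 heterozygous brain was 10 higher and 24 lower, beside 6 and 27. No Pdk2 value remained where all 16 arrays had to hold one.

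With 4 arrays in each group and no intensities, signal over background is unknown, and log ratios near the lower end cannot be told from background. The members rest on 1 spot each, or on a disagreeing pair for Slc2a1.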
